A study of Mus musculus with 4 samples.

Results

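The genes described here encode the LSm proteins, Lsm1 to Lsm8, in outgrowths of Tip110-/- and wild-type mouse blastocysts. A gene counted as measured where the array's annotation gave a row exactly 1 distinct gene symbol equal to its name, and where several rows qualified the brightest on average was kept. By this rule 7 of the 8 genes were measured, among 30142 genes in all. Lsm8 was the exception: its row carries both Lsm8 and Naa38, and it is given separately. An outgrowth is what a blastocyst becomes after it attaches in culture, when its trophoblast spreads over the dish and the inner cell mass grows on top.

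Tip110-/- outgrowths lack Tip110, the protein of the gene Sart3, and both genotypes came from intercrosses of Tip110+/- mice. Blastocysts were taken at 3.5 days post coitum, grown untreated for 4 to 6 days, and genotyped. There were 2 arrays of Tip110-/- and 2 of wild-type outgrowths. For either genotype, 3 outgrowths were pooled as replicate 1, while replicate 2 held 1 outgrowth. The labels give neither the strain nor whether the outgrowths of a pool shared a litter.

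LSm proteins carry the same fold as the Sm proteins of the spliceosome and close into rings of 7 around RNA. The ring of Lsm2 to Lsm8 lies in the nucleus, holds the uridine tail of U6 snRNA, and with Sart3 helps U6 to pair with U4 before each round of splicing. In the ring of Lsm1 to Lsm7, Lsm1 takes the place of Lsm8. That ring lies in the cytoplasm and, with Pat1 proteins, starts the decapping and decay of deadenylated mRNA. In Saccharomyces cerevisiae, Lsm4 stands in both rings beside the subunit that is exchanged.

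Short runs of letters recur in the promoter windows of the members. RefSeq promoter windows, which run from 250 bases before to 50 after the start of a transcript, matched 6 of the 8 genes. These were Lsm2, Lsm3, Lsm5, Lsm6, Lsm7 and Lsm8. The run ATGGCGG was found in windows of Lsm3, Lsm5 and Lsm7. It opens with ATG, the letters of a start codon, and is also the core of the site bound by the factor YY1. Whether it is shared here as the start of the coding sequence or as a promoter element was not tested. Searched on both strands, ATGGCGG occurs in 4.05% of all 32851 windows and in 4.69% of the genes that have one. The run GCGCATGC, part of the palindrome bound by the factor NRF1, was found in windows of Lsm2 and Lsm8, and in 2.71% of all windows. Both runs were picked after the windows had been read, and no data here bear on binding by either factor. The stretches are shown to let the shared letters be seen, with the run in capitals and each written along the strand of its gene (GRCm38.p6).
Lsm3 (chr6:91516038-91516074, plus strand): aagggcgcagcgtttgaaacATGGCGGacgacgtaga
Lsm5 (chr6:56704652-56704688, minus strand): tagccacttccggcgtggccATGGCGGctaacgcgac
Lsm7 (chr10:80855170-80855206, minus strand): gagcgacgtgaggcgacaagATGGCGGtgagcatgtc
Lsm2 (chr17:34981798-34981835, plus strand): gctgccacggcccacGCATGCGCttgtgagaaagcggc
Lsm8 (chr6:18848515-18848552, plus strand): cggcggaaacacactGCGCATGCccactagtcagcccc
In Lsm2 the run reads in the opposite direction. ATGGCGG begins 24 bases after the start of the transcript in Lsm3 and 32 after it in Lsm5, so there it lies within the transcript. In Lsm7 it begins 30 bases before the start of the more downstream of its windows, but within the span of the gene in RefSeq.

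The arrays differed in ways that genotype does not separate from other causes. The RNA collected came to 55.0 and 144 pg per outgrowth in Tip110-/- and to 249 and 178 pg in wild-type, so amount of RNA and genotype cannot be told apart. The median signal over genes was 4.45 and 4.32 in Tip110-/- and 4.21 and 4.22 in wild-type, and the median difference of all genes was 0.15. All signals and differences below are on the deposited log2 scale, and differences are Tip110-/- minus wild-type. Antigenomic probes, which match no mouse gene, had a median of 3.05 and 2.94 in Tip110-/- and of 2.83 and 2.82 in wild-type.

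Sart3 was checked first, as the targeted gene. Its signal was 4.28 and 4.54 in Tip110-/- and 4.94 and 5.98 in wild-type, lower in both Tip110-/- arrays. The highest antigenomic probe reached 4.78 and 4.81 in the Tip110-/- arrays and 6.12 and 5.80 in the wild-type arrays, so of these values only that of the single wild-type outgrowth lay above it. Unlike the antigenomic median, this highest probe was higher in wild-type. Whether a value lies above it is therefore not comparable between the genotypes. The difference of -1.05 became -0.53 without that array. Whether its probes fall within the deletion is not stated, which limits this as a check of the labels.

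The question put to the LSm genes was whether their RNA differs when Tip110, which works on the same U6 snRNA, is missing. The largest difference among the 7 measured members was in Lsm4, whose signal was lower in both Tip110-/- arrays, by 2.89-fold between the group means. The other 6 measured members differed by -0.38 to 0.39, and in each of them the genotypes overlapped. The median over the 7 members was -0.17, which is -0.32 relative to the median of all genes. No gene of the table passed the adjusted threshold of 0.05 in limma (0% of 30142, smallest adjusted p = 0.154), so every difference here is a description of 4 arrays.

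Lsm4, the subunit with an arginine- and glycine-rich tail that the methylosome modifies, had a signal of 11.94 and 11.39 in Tip110-/- and of 13.45 and 12.94 in wild-type. The groups did not overlap, and the gap between them was wider than the gap within either. Means were 11.66 ± 0.39 in Tip110-/- and 13.19 ± 0.36 in wild-type (SD, n = 2 each). The difference of -1.53 ± 0.48 (SE) had a 95% interval of -2.76 to -0.30 and an unadjusted p of 0.0241 in limma, which did not pass after adjustment over all genes (limma adjusted p = 0.357). It was the 1 member of 7 at an unadjusted p under 0.05 in the lower direction, where 3.67% of all genes lay, and the 1 of 7 with both Tip110-/- arrays below both wild-type arrays, which holds for 12.9% of all genes. No member stood on the other side by either measure, where the shares of all genes are 8.99% and 39.9%. Of all genes, 2.81% had a difference lower than that of Lsm4. Without 1 array the difference of Lsm4 ranged from -1.81 to -1.26, and it no longer passed the unadjusted threshold without Tip110-/- replicate 2 (limma unadjusted p = 0.0934) and without wild-type replicate 1 (limma unadjusted p = 0.106).

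**Figure D1:**
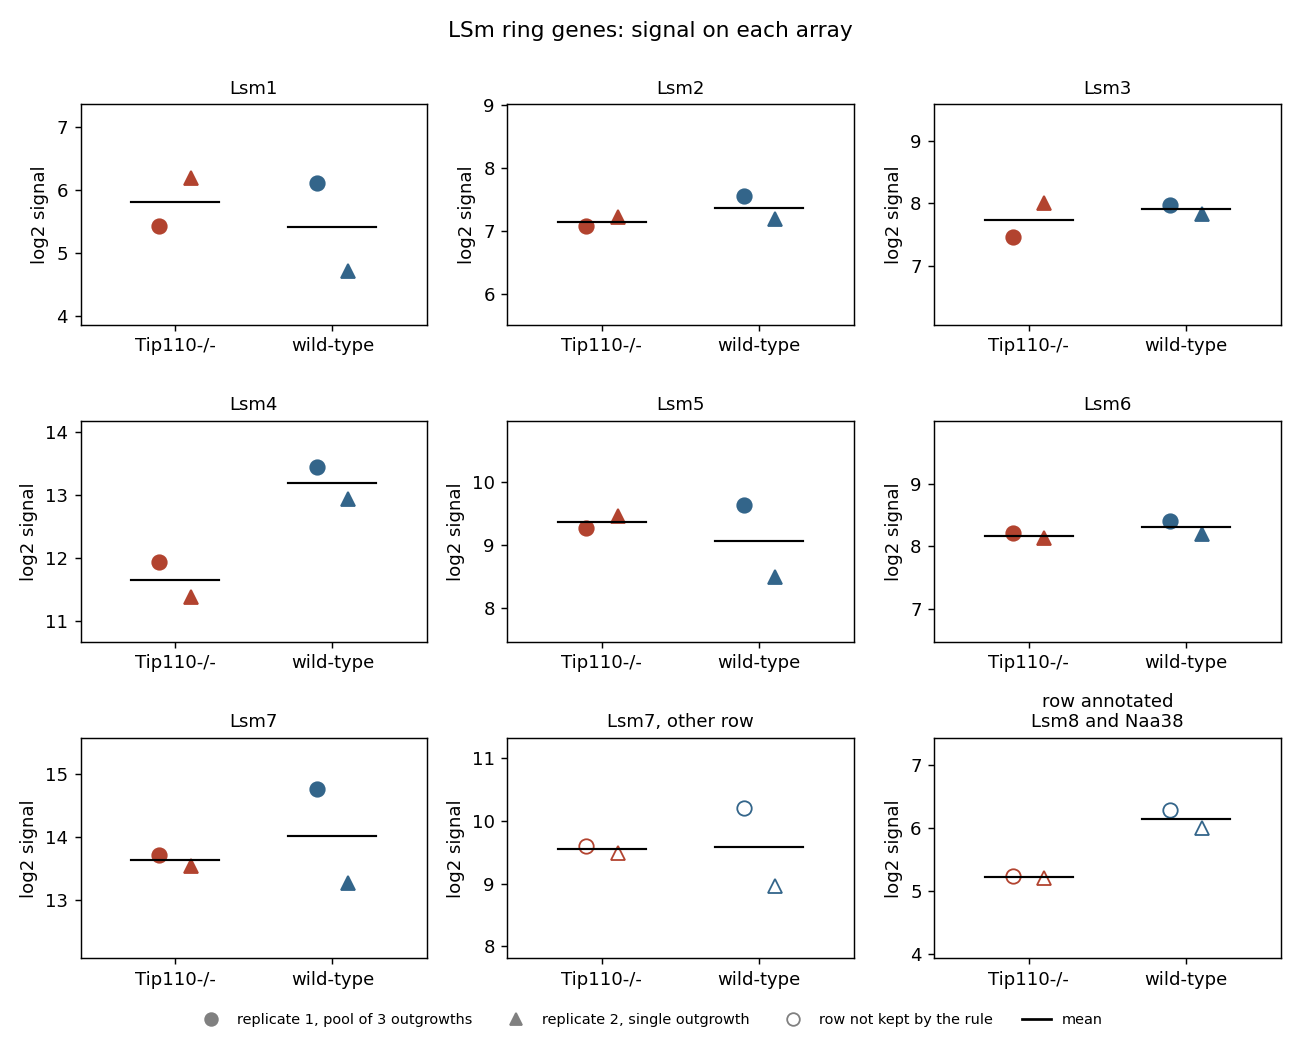
Log2 signal (vertical axes, each spanning the same 3.5 log2 units) of the LSm genes on the 2 Tip110-/- and the 2 wild-type arrays, with circles for the pools of 3 outgrowths, triangles for single outgrowths and a line at each mean. Lsm4 and the row annotated Lsm8 and Naa38 are the panels in which both Tip110-/- arrays lie below both wild-type arrays.

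Lsm8 is the subunit that makes the ring nuclear. Its only row is annotated with Lsm8 and Naa38, but carries the Entrez ID of Lsm8 alone, for which RefSeq lists Naa38 as a synonym. Naa38 is now the symbol of another gene, so the row is outside the rule and was left out of the counts above. The row had 5.23 and 5.20 in Tip110-/- and 6.27 and 5.99 in wild-type, again with no overlap. Added to the table as Lsm8, it differed by -0.92 ± 0.28 (SE), with a 95% interval of -1.63 to -0.21 and an unadjusted p of 0.0206 (limma adjusted p = 0.348). On all 4 arrays the row lies little above the highest antigenomic probe. That probe was likewise lower in the Tip110-/- arrays, at 4.78 and 4.81, than in the wild-type arrays, at 6.12 and 5.80. The part of background signal in the difference of this row was not tested.

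Lsm1, which marks the cytoplasmic ring, had 5.43 and 6.19 in Tip110-/- and 6.12 and 4.72 in wild-type. The lowest and the second highest of these values are both wild-type, so the groups overlap. Both wild-type values lie at or below the highest antigenomic probe of their arrays, given above, and both Tip110-/- values lie above it. That probe was higher in the wild-type arrays. The wild-type value of 6.12, counted as not above it, exceeds the Tip110-/- value of 5.43, counted as above. Detection of Lsm1 in Tip110-/- alone is therefore not shown. Its difference of 0.39 ± 0.56 (SE) had a 95% interval of -1.05 to 1.84 (limma adjusted p = 0.721), and it became -0.31 without wild-type replicate 2. Whether Lsm1 moved unequally to its partners was examined within each array, where only the change between genotypes has meaning and not the level. Lsm1 minus the mean of Lsm2 to Lsm7 was -4.18 and -3.43 in Tip110-/- and -4.18 and -4.93 in wild-type, a difference of 0.75 with an exact two-sided permutation p of 0.667. Lsm1 minus the row annotated Lsm8 and Naa38 was 0.20 and 0.99 in Tip110-/- and -0.16 and -1.27 in wild-type, a difference of 1.31 with an exact permutation p of 0.333. That is the smallest p which 2 arrays against 2 allow, and over these 2 comparisons both exact permutation p became 0.667 after Benjamini-Hochberg adjustment.

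Lsm2, Lsm3 and Lsm6 are shared by both rings and varied less over the 4 arrays than the other measured members. Lsm2 had 7.08 and 7.21 in Tip110-/- and 7.56 and 7.18 in wild-type, a difference of -0.22 ± 0.41 (SE) with a 95% interval of -1.28 to 0.84. Lsm3 had 7.47 and 8.01 in Tip110-/- and 7.98 and 7.84 in wild-type, a difference of -0.17 ± 0.47 with an interval of -1.37 to 1.03. Lsm6 had 8.21 and 8.14 in Tip110-/- and 8.40 and 8.20 in wild-type, a difference of -0.13 ± 0.46 with an interval of -1.32 to 1.06. In all of these the single wild-type outgrowth lay between the Tip110-/- arrays, and in Lsm3 the wild-type pool did too. Every one of these intervals holds a level 2-fold lower in Tip110-/-, so similar levels in the genotypes are not shown.

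Lsm5 and Lsm7, also shared by both rings, had widely separated wild-type arrays. Lsm5 had 9.27 and 9.46 in Tip110-/- and 9.64 and 8.50 in wild-type, a difference of 0.30 ± 0.62 (SE) with a 95% interval of -1.28 to 1.88, and of -0.27 without wild-type replicate 2. Both Tip110-/- arrays lay between the wild-type arrays. The same was true of Lsm7, with 13.71 and 13.54 in Tip110-/- and 14.76 and 13.26 in wild-type. Its difference of -0.38 ± 0.58 had an interval of -1.87 to 1.10, and became 0.37 without wild-type replicate 1.

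Lsm7 also shows how much a measurement rests on the choice of row. The array has a pair of rows annotated with Lsm7, and, to judge by the genes they name, rows are numbered along each chromosome, one strand and then the other. The row with the highest mean, used above, is numbered between rows of Icosl and Cstb, from which Lsm7 is separated by 106 and 100 protein-coding genes in RefSeq, and of the 20 rows around it all 15 whose gene has a known strand belong to the plus strand. Lsm7 is on the minus strand. The other row is numbered between Lingo3, directly beside Lsm7, and Timm13, and of the rows around it 0 of 16 with a known strand are on the plus strand. It had 9.59 and 9.49 in Tip110-/- and 10.20 and 8.96 in wild-type, a difference of -0.035 ± 0.64 (SE) with an interval of -1.67 to 1.60. What the probes of the row with the highest mean detect was not tested.

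**Figure D2:**
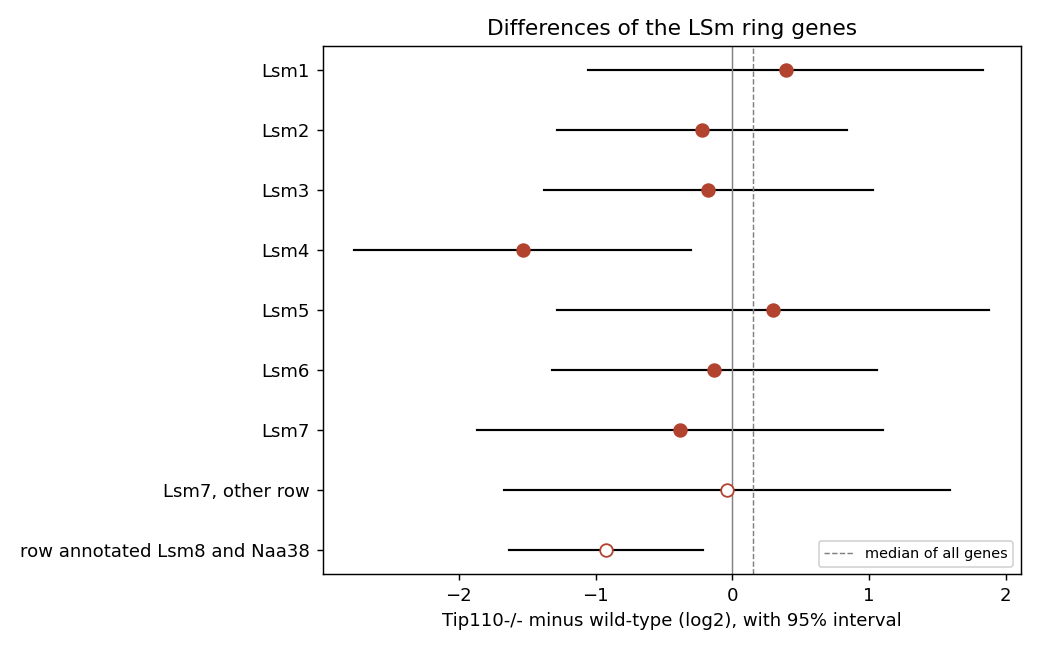
Difference between the genotypes, Tip110-/- minus wild-type in log2 (horizontal axis), for each LSm gene, with the 95% interval of the limma fit over 2 arrays per genotype. Lsm4 at -1.53 and the row annotated Lsm8 and Naa38 at -0.92 are the points whose intervals do not hold 0, and open points are rows not kept by the rule.

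Across arrays, the pooled wild-type array was the highest for most members. Its signal was above that of the single wild-type outgrowth in 7 of 7 members, against 48.8% of all genes, and it was the highest of the 4 arrays in 5 of 7, against 16.1% of all genes. The gap between the wild-type arrays ran from 0.14 to 1.50 and exceeded the difference between genotypes in 5 of 7 members. Between the Tip110-/- arrays the gap ran from 0.07 to 0.76, with the pool higher in 3 of 7. The RNA collected came to 165 and 144 pg in Tip110-/- and to 746 and 178 pg in wild-type, so the pooled wild-type sample also had the most, and the part of this in these values was not tested.

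The mean pattern of Lsm2 to Lsm7 over the 4 arrays, each gene centred on its own mean, was -0.18 and -0.17 in Tip110-/- and 0.50 and -0.14 in wild-type. Among 19039 other protein-coding genes the closest by root mean square distance were Npc2, at 0.018, Fastkd1, at 0.021, and Akirin2, at 0.022. Npc2, a cholesterol carrier of the lysosome, had 7.70 and 7.76 in Tip110-/- and 8.39 and 7.75 in wild-type. The match describes these 4 arrays only.

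Several genes that work with the nuclear ring on U6 snRNA had lower signal in Tip110-/-. Of 12 listed genes of U6 maturation and U4/U6 assembly 10 were measured; 4 were lower at an unadjusted p under 0.05, 1 was higher, 5 did not pass, and none passed after adjustment (limma adjusted p from 0.318). Over all genes 3.67% were lower and 8.99% higher at that unadjusted p, and 1 of the 4 lower genes was the targeted gene Sart3. Without 1 array the differences of the 4 lower genes stayed negative. They ranged from -1.80 to -1.49 for Usb1 and from -1.79 to -1.52 for Prpf31. For Tut1 the range was -1.26 to -0.58 and for Sart3 -1.57 to -0.53. The higher gene, Prpf4, ranged from 1.12 to 2.93. The list median was -0.27, against 0.15 for all genes. Usb1, the exonuclease that trims the uridine tail which the ring holds, had 5.19 and 5.10 in Tip110-/- and 6.63 and 6.95 in wild-type, a difference of -1.64 ± 0.31 (SE). Tut1, the transferase that adds uridines to that tail, had 4.97 and 4.89 in Tip110-/- and 5.51 and 6.19 in wild-type, a difference of -0.92 ± 0.32. Both were lower in both Tip110-/- arrays. The value of Tut1 in wild-type replicate 1 lay below the highest antigenomic probe of that array, and its difference was -0.58 without wild-type replicate 2.

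The proteins of the paired U4/U6 particle differed in opposite directions. Prpf31, which binds U4 snRNA, had 6.67 and 6.44 in Tip110-/- and 8.07 and 8.34 in wild-type, a difference of -1.65 ± 0.42 (SE). Prpf4, which joins with Prpf3 on U4/U6, had 7.43 and 9.24 in Tip110-/- and 6.29 and 6.33 in wild-type, a difference of 2.02 ± 0.70. The groups overlapped in neither, and the difference in Prpf4 was 1.12 without the single Tip110-/- outgrowth. Larp7, Mepce, Mettl16 and Ssb, which bind or modify young U6 or 7SK RNA, were among those that did not pass, with differences between -0.30 and -0.06.

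**Figure D3:**
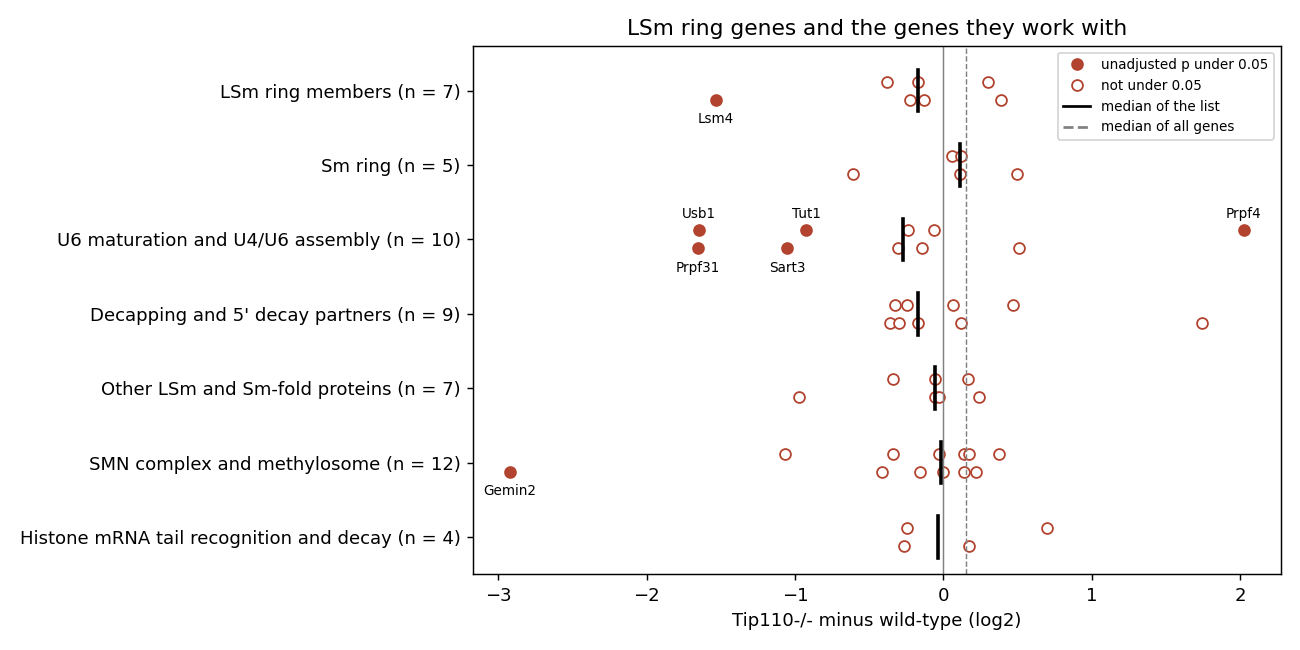
Difference between the genotypes, Tip110-/- minus wild-type in log2 (horizontal axis), for the measured LSm genes and 6 lists of genes they work with (rows, with the number measured). Filled points have an unadjusted p under 0.05 in limma and are named, short black lines mark list medians and the dashed line marks the median of all genes at 0.15. Gemin6 and Gemin7 stand in 2 lists.

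Partners of the cytoplasmic ring showed no gene past the unadjusted threshold. Over all genes 3.67% were lower and 8.99% higher past it, so with 9 genes measured this is no result about the list. Of 10 listed genes of decapping and decay 9 were measured, with a median of -0.17 and differences from -0.36 to 1.74. Dcp1a, an activator of the decapping enzyme, had 6.44 and 8.76 in Tip110-/- and 5.94 and 5.78 in wild-type. Its difference of 1.74 ± 0.81 (SE) was largest in the single Tip110-/- outgrowth, was 0.58 without it, and did not pass (unadjusted p = 0.0846 in limma). The enzyme Dcp2 differed by -0.25, the helicase Ddx6 by 0.47, the ring's partner Patl1 by 0.12 and the exonuclease Xrn1 by 0.07. Among 4 genes that recognise or degrade the tails of histone mRNA, on which the cytoplasmic ring also acts, none passed. For so short a list this too is no result, and the median was -0.04. The member there with the smallest p was Tut7, a uridylating enzyme, at 0.70 ± 0.43 (limma unadjusted p = 0.168).

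The Sm proteins form the sister ring on the other spliceosomal snRNAs. Of 7 listed genes 5 were measured, none at an unadjusted p under 0.05, with a median of 0.11 and differences from -0.61 for Snrpd3 to 0.50 for Snrpf. Snrpd3 had 14.29 and 14.53 in Tip110-/- and 15.29 and 14.75 in wild-type, lower in both Tip110-/- arrays. Of 8 listed other proteins of the LSm or Sm fold 7 were measured and none passed, with a median of -0.06. Over all genes 3.67% were lower and 8.99% higher at that p, so neither count is a result about its list. Lsm10, which replaces an Sm protein in the ring of U7 snRNA, had the smallest p of them, with 6.80 and 6.64 in Tip110-/- and 8.07 and 7.31 in wild-type, a difference of -0.97 ± 0.46 (SE, unadjusted p = 0.0881 in limma). Lsm11, its partner in that ring, differed by -0.06.

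The SMN complex and the methylosome load and modify Sm proteins, and the methylosome also modifies Lsm4. Of 13 listed genes 12 were measured; 1 was lower at an unadjusted p under 0.05, 11 did not pass and none passed after adjustment, with a median of -0.02. Over all genes 3.67% were lower at that p, so 1 of 12 is no result about the list. Gemin2, the SMN partner that holds the Sm proteins before they close on RNA, had 5.52 and 5.24 in Tip110-/- and 8.23 and 8.37 in wild-type. Its difference of -2.92 ± 0.37 (SE) was the largest among the LSm genes and the 6 lists of genes they work with, with an unadjusted p of 0.000533 (limma adjusted p = 0.287), and ranged from -3.06 to -2.78 without 1 array. The methyltransferase Prmt5 differed by 0.14 ± 0.68 and its cofactor Wdr77 by -1.07 ± 0.58, and neither passed.

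Epiblast markers were lower in the Tip110-/- arrays. All 10 epiblast markers were lower in both Tip110-/- arrays, 8 of them at an unadjusted p under 0.05, with a list median of -2.93. Over all genes 12.9% were lower in both Tip110-/- arrays and 3.67% were lower at that p. Pou5f1, for example, had 7.75 and 5.52 in Tip110-/- and 10.04 and 10.06 in wild-type. Sox2 differed by -4.34, Nanog by -7.25 and Esrrb by -0.98. On every array Esrrb lay below the highest antigenomic probe. The difference of Nanog was -4.27 without Tip110-/- replicate 2. The log2 of the summed epiblast signal was 17.09 and 15.39 in Tip110-/- and 18.69 and 18.87 in wild-type. Dppa5a dominates this sum, at 17.06 and 15.35 in Tip110-/- and 18.61 and 18.70 in wild-type. Of 10 measured trophoblast markers 1, Gata2, was higher at an unadjusted p under 0.05 and 4 were higher in both Tip110-/- arrays. Over all genes these shares were 8.99% and 39.9%, so both counts lie near the background. The list median was 0.53, against 0.15 for all genes. The summed trophoblast signal was 17.23 and 18.40 in Tip110-/- and 17.48 and 16.75 in wild-type. Prl2c2 dominates it, at 17.17 and 18.33 in Tip110-/- and 17.44 and 16.68 in wild-type. Cdx2 differed by 0.62 and Eomes by 0.94. Without Tip110-/- replicate 1 Cdx2 was at -0.04, and without Tip110-/- replicate 2 Eomes was at 0.38. Lsm4, Usb1, Prpf31 and Gemin2 were lower in both Tip110-/- arrays, as the epiblast markers were. Other genes of the lists went the opposite way, as Prpf3, Prpf4, Dcp1a, Snrpf and Tut7 were higher in both Tip110-/- arrays. The part of the lower epiblast signal in the levels of Lsm4, Usb1, Prpf31 and Gemin2 was not tested. In bulk samples, fewer cells of a type and less RNA per cell cannot be told apart.

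No primitive endoderm marker of 9 passed. Over all genes 3.67% were lower and 8.99% higher at an unadjusted p under 0.05, so this is no result about the list. Gata4 differed by 0.07, and its wild-type values, 5.44 and 4.21, lay below the highest antigenomic probe of their arrays. Gata6 had 3.85 and 5.69 in Tip110-/- and 3.96 and 3.60 in wild-type, a difference of 0.98 that became 0.06 without Tip110-/- replicate 2. Only in that array did Gata6 lie above the highest antigenomic probe. The summed signal of these markers was 8.27 and 8.74 in Tip110-/- and 9.12 and 7.76 in wild-type. Of 7 measured uterine, stromal and blood markers none passed, which is likewise no result about the list. On every array 6 of them lay below the median of all genes. Among these were Pgr at 3.70 and 3.54 in Tip110-/- and 3.41 and 3.41 in wild-type and Esr1 at 3.72 and 3.74 in Tip110-/- and 3.65 and 3.62 in wild-type. The exception was Pecam1, which embryonic cells also express, at 9.53 and 11.76 in Tip110-/- and 9.00 and 8.69 in wild-type. The summed signal of this list, which Pecam1 dominates, was 9.69 and 11.79 in Tip110-/- and 9.20 and 8.94 in wild-type.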

How the data were processed

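RNA of 4 samples, 2 Tip110-/- and 2 wild-type, was labelled with the WT Pico protocol and measured on Affymetrix whole-transcript mouse arrays, per the labels' protocols; the labels give 144 pg per array, the series text another amount. The authors deposited 1 log2 signal for each of 72688 rows and array. That the scale is log2 was judged from the span of the values. Affymetrix Expression Console and Transcriptome Analysis Console are named in the submitters' processing notes; versions, normalization and build: not given in the sources used here. Rows with 1 distinct symbol (30604) were named, updated by Entrez ID through RefSeq GRCm38.p6 (22818 rows), and reduced to 30142 genes; 2146 rows with several symbols, 33206 with none and 6732 controls were left out of the gene test.

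Genotype was fitted over all genes with limma 3.58.1 (lmFit, eBayes with trend; R 4.3.3) on the deposited log2 values, two-sided, with Benjamini-Hochberg adjustment and a threshold of 0.05. Contrasts within arrays were tested by exact permutation. The fit was tested on simulated data. Plots used matplotlib 3.10.9 in Python 3.11.15. With 2 arrays per genotype, their number limits the precision, and p-values measure only the spread between these samples. The members and lists were chosen with earlier results of these data known. Named are all members, Sart3, the first markers of each cell type and the 3 genes nearest in pattern. From each other list, up to 4 genes at an unadjusted p under 0.05 are named, or else the gene with the smallest p. Larp7, Mepce, Mettl16, Ssb, Prpf3, Dcp2, Ddx6, Patl1, Xrn1, Snrpf, Lsm11, Prmt5, Wdr77, Dppa5a, Gata2, Prl2c2 and Pecam1 were added after their values were seen. Alternatives were quantile normalization, centred columns, a filter at the median row, no trend, the mean of a gene's rows, the replicate number as a block and each array left out.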

Additional observations from a re-analysis of the deposited data

How the results depend on the processing

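The difference of Lsm4 was negative under all 10 alternatives, from -1.81 to -1.26, and 0 genes of the table passed the adjusted threshold under any of them. With the replicate block, Lsm4 was at -1.53 (limma adjusted p = 0.443); replicate numbers do not pair the arrays by any label, the deviations of same-numbered arrays correlated at -0.09 across 30142 genes, and no call changed. The members lower at an unadjusted p under 0.05 numbered 1 of 7 under every alternative that kept all 4 arrays and the same members. They numbered 2 when the row annotated Lsm8 and Naa38 was added. In the main fit 3.67% of all genes were lower at that p. The added row and the other row for Lsm7 were alternatives chosen after seeing the data. The median difference of the members was -0.062 with quantile normalization, -0.34 with centred columns and -0.31 to -0.030 without 1 array. Relative to all genes it was -0.073 with quantile normalization and -0.46 to -0.19 without 1 array. Directions turned for Lsm1 (-0.31 to 1.09), Lsm3 (-0.44 to 0.10), Lsm5 (-0.27 to 0.87) and Lsm7 (-1.13 to 0.37) without 1 array. Among markers they turned for Cdx2 (-0.041 to 1.29) and Gata4 (-0.54 to 0.69) without 1 array, for Gata4 with centred columns (-0.092), and for Esr1 with quantile normalization (-0.10) and with centred columns (-0.074). The cause of these shifts was not tested.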

Other observations

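The higher of the rows annotated with Lsm7 exceeded the other by 4.12 and 4.05 in the Tip110-/- arrays and by 4.56 and 4.30 in the wild-type arrays. In both rows the order of the arrays was the same, with the pooled wild-type array highest and the single wild-type outgrowth lowest.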
